A study of Mus musculus with 27 samples.

Results

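RNA of sorted dural macrophages was compared between Rag1 ko mice that had received Tbet ko T cells and Rag1 ko mice that had received total B6 T cells. The comparison holds 7 of the 27 libraries of the study, taken by the group in their labels: 2 Tbet ko libraries, both female, against 5 total T libraries, of which 4 are female and 1 is male. All mice were of the B6 strain with a Rag1 ko genotype, so they lacked lymphocytes that need Rag1, and were 16 to 19 weeks old; in both groups the macrophages were taken 6.5 weeks after reconstitution. The condition label of the Tbet ko libraries reads Tbet ko T cell reconstitution, while their titles read Th1; they are grouped here by the condition. The knockout was carried by the transferred T cells and not, per the labels, by the macrophages that were sequenced. Of the other groups of Rag1 ko mice, 4 also received T cells 6.5 weeks earlier: IL-17AF ko (2 female libraries), IFNg ko (2 female), IL6Ra ko/IL21R ko (3 female, 4 male) and IL22 ko T cells (2 female, 1 male). The last group, at steady state, had no T cells (6 libraries, 4 female and 2 male). The labels do not say how many animals stand behind a library, how the transferred T cells were purified or which markers the sort used.

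T-bet, the product of Tbx21, is the transcription factor that directs helper T cells to the Th1 fate and drives their secretion of interferon-gamma. On macrophages, interferon-gamma binds a receptor coupled to JAK kinases; the transcription factors they activate bind gamma-activated sequences (GAS) in target genes, and the interferon regulatory factors that follow bind interferon-stimulated response elements (ISRE). The response raises guanylate-binding GTPases, T-cell-attracting chemokines, the immunoproteasome and MHC molecules. The dura mater, the outer meningeal layer under the skull, holds resident border-associated macrophages and, beside them, cells that descend from blood monocytes.

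The 27 libraries fell into types by their ribosomal protein transcripts, summed as CPM (counts scaled to the library's total), and the Tbet ko libraries share no type with the total T libraries. The Tbet ko libraries had 8421 and 8521 CPM of these transcripts, against 15023 to 33623 CPM in the total T libraries. Libraries above 20000 CPM are called set A here (total T libraries F1, F2 and M1), those between 10000 and 20000 CPM set B (total T libraries F3 and F4) and those under 10000 CPM set C. Besides both Tbet ko libraries, set C holds both IL-17AF ko, both IFNg ko and 1 of 7 IL6Ra ko/IL21R ko libraries. Fibroblast RNA moved with the type: the genes of the fibroblast list summed to 4074 and 3711 CPM in the Tbet ko libraries, against 337 to 539 CPM in the total T libraries. A difference between T-cell groups and a difference between library types therefore cannot be told apart in the comparison as a whole, and values against set A and set B are given below beside the pooled ones.

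**Figure D1:**
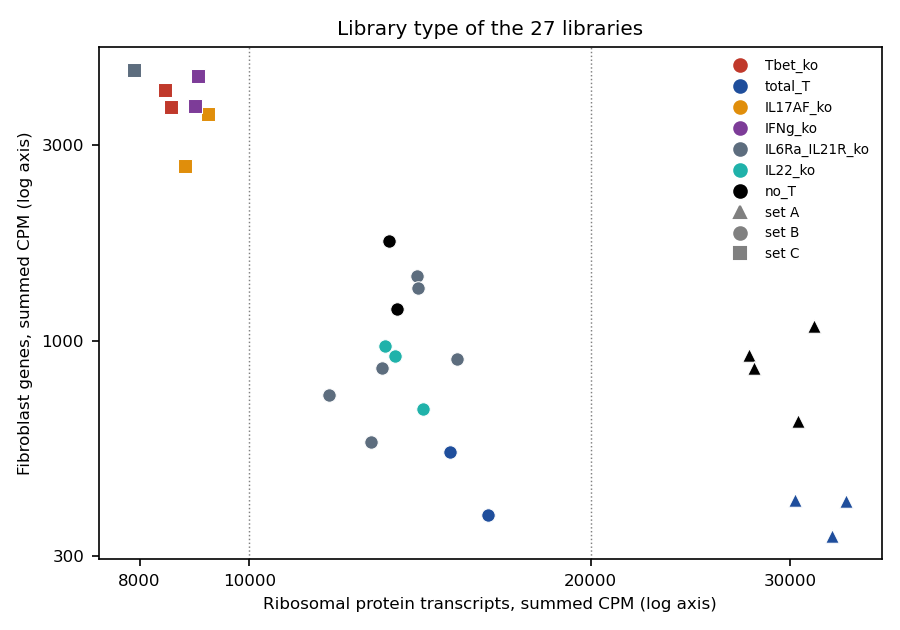
Each point is 1 of the 27 libraries, placed by its summed CPM of ribosomal protein transcripts (x, log axis) and of fibroblast genes (y, log axis), coloured by group and shaped by set; dotted lines mark 10000 and 20000 CPM. The Tbet ko libraries lie at the upper left with the IL-17AF ko and IFNg ko libraries and 1 IL6Ra ko/IL21R ko library, and the total T libraries at the lower centre and lower right.

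Macrophage markers matched the labelled cell type in both groups. The macrophage genes Csf1r, Adgre1, Cd68, Mertk, Fcgr1, Cd14, Ptprc and Itgam were detected in all 7 libraries, Csf1r at 5638 and 5800 CPM in the Tbet ko libraries against 2671 to 4242 CPM in the total T libraries. Lyz2, a lysozyme of monocytes and macrophages, had 6555 and 8079 CPM in the Tbet ko libraries against 12085 to 14868 CPM in the total T libraries. Of 16 listed T-cell genes 7 had 0 counts in both Tbet ko libraries, and 0 of the 16 had 0 counts in all total T libraries. The total T group has 5 libraries against 2, each with a larger total, so a gene is less likely to be at 0 in all of them. Of the 4 list members tested, 2 were called higher in the Tbet ko libraries, Cd28 and Cd4, and 0 lower, beside 15.8% higher and 14.1% lower among all genes. The median log2 fold change over the 4 was -0.13. The list summed to 177 and 216 CPM in the Tbet ko libraries, against 64.7 to 139.9 CPM in the total T libraries. Cd3e, a chain of the T-cell receptor complex, had 0 counts in both Tbet ko libraries, against 0 to 14 in the total T libraries. Its partner Cd3d had 1 and 2 counts in the Tbet ko libraries, against 0 to 70 in the total T libraries. Cd3g had 0 in both Tbet ko libraries against 0 to 24 in total T libraries, and Cd8a had 0 in both Tbet ko libraries against 0 to 76 in total T libraries. Tbx21 had 0 counts in both Tbet ko libraries and 0 to 41 in the total T libraries, 2 of which were at 0, and Ifng had 0 counts in both Tbet ko libraries and 0 to 61 in the total T libraries, 3 of which were at 0. These are counts from sorted macrophages and do not check the knockout. Cd4, which macrophages can also carry, made up most of the summed T-cell list in all of these libraries except total T F1, with 172 and 208 CPM in the Tbet ko libraries against 19.9, 86, 136, 99.8 and 57.4 CPM in the total T libraries. Cd4 differed by a log2 fold change of 1.25 ± 0.43 (edgeR adjusted p = 0.0326, 0.368 against set B, 0.0575 with offsets for transcript length and GC content, 0.268 in a fit of the 7 libraries alone). Without 1 library its adjusted p was 0.102 (Tbet ko F1 left out), 0.176 (Tbet ko F2) or 0.0621 (total T M1).

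Between the groups, 3793 of 12661 tested genes differed at an adjusted p under 0.05 (30.0%; edgeR's quasi-likelihood test, Benjamini-Hochberg adjustment over the 12661 genes). Of these, 2004 were higher in Tbet ko libraries (15.8%) and 1789 lower (14.1%). The 2 Tbet ko libraries lay outside the range of the 5 total T libraries for 5711 genes (45.1%), above it for 23.9% and below it for 21.2% of all genes. Without 1 Tbet ko library the count was 1463 (F1 left out) or 1962 (F2 left out), and against the 2 total T libraries of set B it was 1418. With the library set as a term, which leans on the 1 IL6Ra ko/IL21R ko library of set C, it was 11, and it left 0 calls among the 81 genes given below with a fold change or adjusted p of the fit without that term; 4 other genes called without it, Psen2, Ptgs1, Etv3 and Flna, kept their calls. Log2 fold changes are Tbet ko over total T throughout, ± standard error, and values per library are CPM scaled by TMM factors, with the total T libraries in the order F1, F2, F3, F4, M1. The names of the Tbet ko libraries share a running number, so both may come from 1 animal, and p-values measure the spread between libraries, which may be technical. RNA came from bulk sorts, so fewer cells of a type and less RNA per cell cannot be told apart.

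Genes that follow fibroblast RNA were set apart. These were 301 of the tested genes, either members of stromal marker lists (88) or genes whose level tracked the fibroblast score in 15 libraries of sets A and B outside the comparison (239, with overlap). Of the 301, 125 were higher in Tbet ko libraries (41.5%) and 26 lower (8.64%), against 1879 higher (15.2%) and 1763 lower (14.3%) of the other 12360 genes. Col1a1, a chain of type I collagen (chromosome 11, 94936224 to 94953042, + strand), had 1309.5 and 1138 CPM in the Tbet ko libraries, against 121, 105, 152, 89.8 and 122 CPM in the total T libraries. Col1a1 differed by a log2 fold change of 3.36 ± 0.62 (adjusted p = 0.000671, edgeR). Col1a1 was named outside the rule for named genes. The groups did not overlap, and the other set C libraries were high too, with 983 and 1197 CPM in IL-17AF ko and 1152 and 1444 CPM in IFNg ko libraries. Alpl, an alkaline phosphatase of bone-forming cells, had 123 and 112 CPM in the Tbet ko libraries against 13.3, 9.75, 5.82, 16.3 and 7.22 CPM in the total T libraries. The collagen receptor Ddr2 had 109 and 87.4 CPM in the Tbet ko libraries against 11.7, 16.3, 11, 21.1 and 14.3 CPM in the total T libraries. The log2 fold changes of Alpl and Ddr2 were 3.48 ± 0.38 and 2.71 ± 0.28 (adjusted p = 6.52e-06 and 2.8e-06, edgeR). Ogn, a small matrix proteoglycan, and Serpinf1, a secreted serpin, were called as well, with log2 fold changes of 2.58 ± 0.30 and 1.91 ± 0.23. All 9 tested members of the fibroblast list rose (median 3.48) and 38 of 49 extracellular matrix genes rose with 0 falling (median 2.63), beside 15.8% higher among all genes. Endothelial genes did not share this: of 12 tested, 0 rose and 1 fell.

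Genes of the interferon-gamma response were lower in the Tbet ko libraries. Of 30 listed genes 27 passed the filter on low counts (a mean of at least 10 normalised counts over the 27 libraries), and of these 14 fell and 0 rose, beside 14.1% lower among all genes tested; the median log2 fold change was -1.13, beside 0.01 over all genes. The libraries of the groups did not overlap for 14 of the 27, beside 45.1% of all genes. The list's mean log2 CPM was 5.22 and 5.33 in the Tbet ko libraries, against 5.72 to 7.80 in the total T libraries, so the nearest libraries lie close together. The median was -1.49 against set A (19 fell), -0.58 against set B (2 fell) and -0.14 with the library set as a term (0 fell). In a fit of the 7 libraries alone 4 of the 27 fell, and 3 with both Tbet ko libraries summed into 1; among the genes described next, the fit of the 7 libraries ended the calls of Gbp2, Gbp4, Cxcl9, Ccl5 and Cd274 (adjusted p = 0.0967, 0.0556, 0.0565, 0.0582 and 0.102, edgeR).

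Among the signalling genes, Socs1, the feedback inhibitor of JAK kinases, had 13.6 and 11 CPM in the Tbet ko libraries, against 78.3, 60.7, 32.2, 37.6 and 101 CPM in the total T libraries. Socs1 differed by a log2 fold change of -2.32 ± 0.51 (adjusted p = 0.00202, edgeR). The receptor chain Ifngr2 had 135 and 147 CPM in the Tbet ko libraries against 236, 223, 233, 211 and 256 CPM in the total T libraries (log2 fold change -0.71 ± 0.18, adjusted p = 0.00428, edgeR), and Socs3, an inhibitor of STAT3 signalling, was higher, with 2574 and 2247 CPM in the Tbet ko libraries against 1063, 1504, 1286, 1134 and 1048 CPM in the total T libraries. Socs3 differed by a log2 fold change of 1.01 ± 0.17 (adjusted p = 0.000169, edgeR). Of the 14 genes of the receptor and its signalling 6 fell and 2 rose, beside 14.1% lower and 15.8% higher among all genes, with a median of -0.36. Without the Tbet ko library F1, the adjusted p of Ifngr2 was 0.08.

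The guanylate-binding proteins are GTPases that attack the compartments of intracellular microbes. Gbp2 (chromosome 3, 142620602 to 142638008, + strand) had 151 and 128 CPM in the Tbet ko libraries, against 1667, 458, 276, 446 and 1259 CPM in the total T libraries. Gbp2 differed by a log2 fold change of -2.56 ± 0.63 (adjusted p = 0.00464, edgeR). The groups did not overlap, but total T libraries F1 and M1 stood far above the other 3, and against set B the difference was -1.37 (adjusted p = 0.0945, edgeR). Gbp4 had 13.8 and 9.62 CPM in the Tbet ko libraries, against 143, 60.4, 33.3, 39.3 and 158 CPM in the total T libraries, and Gbp3 had 87 and 68.4 CPM in the Tbet ko libraries, against 314, 174, 139.9, 173 and 307 CPM in the total T libraries. Their log2 fold changes were -2.81 ± 0.67 and -1.52 ± 0.35 (adjusted p = 0.00378 and 0.00248, edgeR; 0.0725 and 0.0569 against set B). Leaving out 1 Tbet ko library ended these calls: without F1 the adjusted p of Gbp2 was 0.0545, and without F2 it was 0.063 for Gbp2, 0.0537 for Gbp3 and 0.0635 for Gbp4. The fold change of Gbp3 was 0.0498 once the library set was a term.

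Chemokines of the response, a checkpoint ligand and an itaconate-making enzyme were lower too, with a wide spread among total T libraries. Cxcl9, a chemokine that recruits CXCR3-bearing T cells (chromosome 5, 92321347 to 92328079, - strand), had 34.3 and 67.5 CPM in the Tbet ko libraries, against 1316, 739, 122, 609 and 2205 CPM in the total T libraries. Cxcl9 differed by a log2 fold change of -4.34 ± 1.24 (adjusted p = 0.0133, edgeR). The total T library F3 was the nearest to the Tbet ko libraries and M1 the farthest. Ccl5, another T-cell chemokine, had 6.52 and 6.41 CPM in the Tbet ko libraries, against 428, 98.4, 42.1, 83.5 and 595 CPM in the total T libraries. Ccl5 differed by a log2 fold change of -5.18 ± 1.47 (adjusted p = 0.0125, edgeR). The checkpoint ligand Cd274 (PD-L1) had 49 and 66.5 CPM in the Tbet ko libraries, against 358, 183, 77.5, 129.8 and 512 CPM in the total T libraries. Cd274 differed by a log2 fold change of -2.06 ± 0.62 (adjusted p = 0.0175, edgeR). Acod1, the enzyme that makes itaconate (chromosome 14, 103046977 to 103056573, + strand), had 7.31 and 8.82 CPM in the Tbet ko libraries, against 443, 136, 74.2, 104 and 588 CPM in the total T libraries. Acod1 differed by a log2 fold change of -5.05 ± 1.34 (adjusted p = 0.00813, edgeR). For all 4 the groups did not overlap, and for all 4 the call was lost against set B (adjusted p = 0.106, 0.104, 0.324 and 0.0666 in the order given). It was also lost without the Tbet ko library F1 (0.141, 0.113, 0.163 and 0.0963) and without F2 (0.0748, 0.102, 0.0834 and 0.0744).

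**Figure D2:**
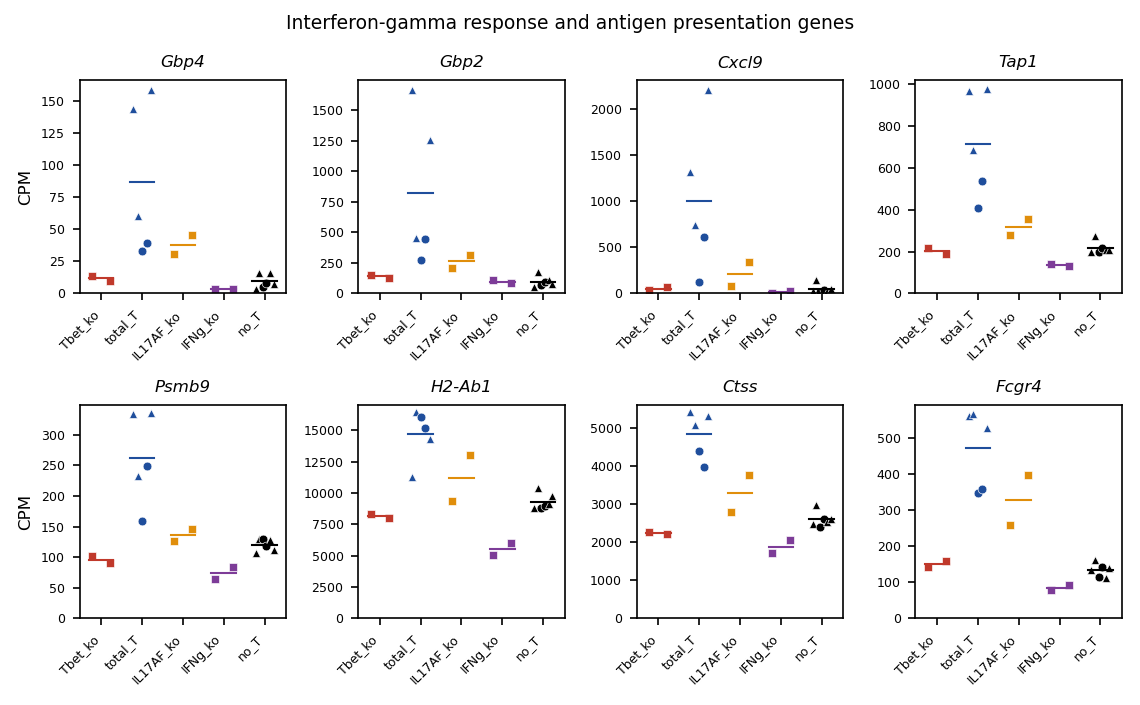
CPM per library (points; triangles set A, circles set B, squares set C) with the group mean (line) for 8 genes of the interferon-gamma response, antigen presentation and IgG binding; groups are on the x axis, Tbet ko at the left. For each gene both Tbet ko libraries lie under the lowest total T library, both IL-17AF ko libraries lie above and both IFNg ko libraries below the Tbet ko libraries, all of set C, although none of these differences between set C groups was called. The 8 genes were chosen for display. Socs1, Acod1 and Psmb10, not shown, did not keep this order among the set C groups, and the share of all genes that did was not computed.

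The promoters of the response genes described here are shown because the transcription factors of this response act through short elements near the start site. Sequences are the 250 bases before the annotated start from RefSeq (GRCm38.p6), 5′ to 3′ on the gene's strand. They were searched on both strands for the GAS form TTCNNNGAA, which reads alike on both strands. They were also searched for the ISRE core, GAAA and GAAA with any 2 bases between them, or TTTC and TTTC on the other strand; capitals mark a match. Of the 8 most strongly called response genes by p, 6 had a window (7 windows, since Gbp3 has 2), and 4 of the 7 windows held a match:
Gbp2 (chr3:142620413-142620662, + strand): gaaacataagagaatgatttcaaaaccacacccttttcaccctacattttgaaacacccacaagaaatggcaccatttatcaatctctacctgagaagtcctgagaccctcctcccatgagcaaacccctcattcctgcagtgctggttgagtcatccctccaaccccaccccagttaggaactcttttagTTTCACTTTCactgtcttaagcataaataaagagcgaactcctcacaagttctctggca
Gbp3 (chr3:142559794-142560043, + strand): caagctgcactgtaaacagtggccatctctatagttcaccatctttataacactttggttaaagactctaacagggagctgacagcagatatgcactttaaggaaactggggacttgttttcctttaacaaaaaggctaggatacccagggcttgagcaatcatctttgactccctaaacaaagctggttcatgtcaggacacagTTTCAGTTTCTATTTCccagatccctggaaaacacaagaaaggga
Serpina3g (chr12:104235897-104236146, + strand): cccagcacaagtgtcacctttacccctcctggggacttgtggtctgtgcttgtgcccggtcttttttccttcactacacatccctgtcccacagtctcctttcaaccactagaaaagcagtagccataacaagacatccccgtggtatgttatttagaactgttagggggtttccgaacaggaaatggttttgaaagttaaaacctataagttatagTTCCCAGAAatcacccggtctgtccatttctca
Socs1 (chr16:10785537-10785786, - strand): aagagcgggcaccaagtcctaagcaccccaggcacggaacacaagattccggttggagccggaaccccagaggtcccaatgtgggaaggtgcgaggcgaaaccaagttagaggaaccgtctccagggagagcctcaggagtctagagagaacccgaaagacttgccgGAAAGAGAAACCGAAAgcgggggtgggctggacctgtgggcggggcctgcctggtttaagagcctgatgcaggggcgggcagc
The Gbp2 window held 1 ISRE match, the Gbp3 window shown 2 that overlap, the Socs1 window 2 that overlap, and the window of Serpina3g, a serine protease inhibitor, 1 GAS match. The second Gbp3 window, chr3:142560106-142560355 on the + strand, held 0. Among all 32851 promoter windows of this length, 7.02% held the GAS form, 2.98% the ISRE form and 9.66% either. RefSeq starts can differ from the starts of the gene coordinates given in the text. The Gbp2 window runs past the start of the Gbp2 coordinates given above, and its match lies after that start. A match describes these letters only and is no measured binding site.

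Genes that load peptides on MHC class I were lower in the Tbet ko libraries. Of 23 tested genes of this list 16 fell and 0 rose, beside 14.1% lower among all genes (median -0.84; -1.03 against set A with 18 lower, -0.60 against set B with 8 lower). Tap1, a chain of the peptide transporter into the endoplasmic reticulum (chromosome 17, 34187553 to 34197225, + strand), had 218 and 190.2 CPM in the Tbet ko libraries, against 965, 686, 406, 537 and 978 CPM in the total T libraries. Tap1 differed by a log2 fold change of -1.81 ± 0.30 (edgeR adjusted p = 0.000169; -1.21 against set B, adjusted p = 0.00474). Its partner Tap2 had 134 and 110.3 CPM in the Tbet ko libraries, against 423, 236, 169, 208 and 339 CPM in the total T libraries. Tap2 differed by a log2 fold change of -1.15 ± 0.23 (adjusted p = 0.000762, edgeR). The immunoproteasome subunits, which shape the peptides, showed the same order. Psmb9 had 102 and 90.2 CPM in the Tbet ko libraries, against 335, 233, 159.6, 248 and 336 CPM in the total T libraries, and Psmb8 had 197 and 183 CPM in the Tbet ko libraries, against 781, 472, 321, 445 and 627 CPM in the total T libraries. Psmb10 had 137 and 125 CPM in the Tbet ko libraries, against 528, 275, 211, 286 and 445 CPM in the total T libraries. The log2 fold changes of Psmb8, Psmb9 and Psmb10 were -1.48 ± 0.26, -1.47 ± 0.25 and -1.39 ± 0.27 (adjusted p = 0.000273, 0.000225 and 0.000548, edgeR), and all 3, like Tap1 and Tap2, were also called against set B and without either Tbet ko library. With a term for the library set the list's median was -0.27 and no member was called. Within the IL6Ra ko/IL21R ko group, the log2 ratio of the set C library to the mean of the others had a median of -0.61 over this list. The part of the library type in the class I result was not tested beyond these values.

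MHC class II genes were also lower against total T libraries, and the library type moved with them. Of 13 tested members 9 fell and 0 rose, beside 14.1% lower among all genes (median -0.88, -0.90 against set A with 7 lower, -0.95 against set B with 5 lower). H2-Ab1, a chain of the class II molecule I-A (chromosome 17, 34257689 to 34269419, + strand), had 8307 and 8015 CPM in the Tbet ko libraries, against 11274, 16458, 16078, 15196 and 14289 CPM in the total T libraries. H2-Ab1 differed by a log2 fold change of -0.86 ± 0.29 (adjusted p = 0.0296, edgeR), and this call was lost against set A (0.055) and against set B (0.0723). H2-DMa, which exchanges peptides on class II, had 573 and 507 CPM in the Tbet ko libraries, against 1099, 1125, 1100.4, 1134 and 1038 CPM in the total T libraries (log2 fold change -1.05 ± 0.26, adjusted p = 0.00375, edgeR), and its partner H2-DMb1 had 393 and 364 CPM in the Tbet ko libraries against 639.7, 728, 721, 649 and 717 CPM in the total T libraries. H2-DMb1 differed by a log2 fold change of -0.88 ± 0.24 (adjusted p = 0.0073, edgeR). With offsets for transcript length and GC content the adjusted p was 0.103 for H2-Ab1 and 0.0612 for H2-DMb1 (edgeR). The total T libraries of both sets were close to one another for these 3 genes, apart from F1 for H2-Ab1. Within the IL6Ra ko/IL21R ko group, the log2 ratio of the 1 library of set C to the mean of the other 6 had a median of -1.45 over this list and was -1.51 for H2-Ab1. With a term for the library set the list's median was 0.47 and H2-Ab1, H2-DMa and H2-DMb1 were at 0.66, 0.42 and 0.39. The part of the library type in the class II result was not tested beyond these values. Without the Tbet ko library F2 the adjusted p was 0.167 for H2-Ab1, 0.0653 for H2-DMa and 0.088 for H2-DMb1, without F1 it was 0.154 for H2-Ab1 and 0.063 for H2-DMb1, and without total T library F2 it was 0.0534 for H2-Ab1.

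Ctss and Fcgr4, which serve antigen handling, were called against set A and against set B. Ctss, the protease that cleaves the invariant chain of class II (chromosome 3, 95526786 to 95556403, + strand), had 2275 and 2221 CPM in the Tbet ko libraries, against 5416, 5073, 4379.8, 3962 and 5316 CPM in the total T libraries. Ctss differed by a log2 fold change of -1.08 ± 0.18 (edgeR adjusted p = 0.000183; -0.89 against set B, adjusted p = 0.00645). The gene of the activating Fc receptor Fcgr4 (chromosome 1, 171018920 to 171029761, + strand) had 141 and 159.6 CPM in the Tbet ko libraries, against 561, 568, 346, 359 and 527 CPM in the total T libraries. Fcgr4 differed by a log2 fold change of -1.68 ± 0.26 (edgeR adjusted p = 0.000111; -1.23 against set B, adjusted p = 0.00419). Of 6 Fc receptor genes 2 fell and 0 rose, beside 14.1% lower among all genes. Cd40, the receptor through which T cells license antigen-presenting cells, had 46.5 and 55.4 CPM in the Tbet ko libraries, against 187, 145, 88.3, 113 and 224 CPM in the total T libraries. Cd40 differed by a log2 fold change of -1.58 ± 0.38 (adjusted p = 0.00333, edgeR; 0.0763 against set B and 0.0667 without the Tbet ko library F1). Pycard, the adaptor of inflammasomes, and Gsdmd, the pore-forming gasdermin, were lower too, with log2 fold changes of -1.51 ± 0.24 and -1.11 ± 0.25 (adjusted p = 0.000102 and 0.00224, edgeR; 0.00419 and 0.0806 against set B). Type I interferon-stimulated genes were mixed: of 23 tested, 3 rose and 6 fell (median -0.44), beside 15.8% higher and 14.1% lower among all genes. Siglec1, a sialic acid receptor of macrophages, had 1276 and 1234 CPM in the Tbet ko libraries, against 175, 383, 503, 554 and 333 CPM in the total T libraries (log2 fold change 1.66 ± 0.30, adjusted p = 0.000421, edgeR). In the IL6Ra ko/IL21R ko group Siglec1 had 1022 CPM in the set C library against 447 to 887 CPM in the others. Siglec1 differed by 0.81 with length and GC offsets (adjusted p = 0.0227, edgeR). With the library set as a term it differed by 0.59 and was not called. By contrast Zbp1, a nucleic acid sensor, had 63.4 and 58.2 CPM in the Tbet ko libraries, against 239, 104, 91.8, 117 and 258 CPM in the total T libraries. Zbp1 differed by a log2 fold change of -1.40 ± 0.33 (adjusted p = 0.00334, edgeR; 0.0927 against set B and 0.0516 without the Tbet ko library F2).

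Genes typical of resident border macrophages were higher in the Tbet ko libraries. Of 22 members 19 rose and 0 fell, beside 15.8% higher among all genes tested, and the median log2 fold change was 1.68 (2.43 against set A with 20 higher, 1.02 against set B with 8 higher, 1.17 with the library set as a term with 0 called). In a fit of the 7 libraries alone the median was 1.46 and 2 of 22 were called higher; there Mrc1, Gas6, Igf1 and Cd163 missed the threshold (adjusted p = 0.0807, 0.0549, 0.0623 and 0.071, edgeR). The list's mean log2 CPM was 9.07 and 9.22 in the Tbet ko libraries, against 6.52 to 8.21 in the total T libraries. In the IL6Ra ko/IL21R ko group the library of set C differed from the other 6 by a median of 0.04 over this list. Mrc1, the mannose receptor (chromosome 2, 14229392 to 14332057, + strand), had 5177 and 5723 CPM in the Tbet ko libraries, against 506, 1414, 2597, 2063 and 788 CPM in the total T libraries. Mrc1 differed by a log2 fold change of 1.87 ± 0.35 (edgeR adjusted p = 0.000539; 1.23 against set B, adjusted p = 0.015). The total T libraries of set B were the nearest to the Tbet ko libraries and F1 was the farthest. Gas6, which bridges dying cells to phagocyte receptors (chromosome 8, 13465374 to 13494490, - strand), had 1287 and 1415 CPM in the Tbet ko libraries, against 148, 299.6, 548, 565 and 157 CPM in the total T libraries. Gas6 differed by a log2 fold change of 1.96 ± 0.34 (edgeR adjusted p = 0.000299; 1.28 against set B, adjusted p = 0.00477). Igf1, a growth factor, had 598 and 531 CPM in the Tbet ko libraries, against 56.7, 136, 232, 232 and 70.5 CPM in the total T libraries. Igf1 differed by a log2 fold change of 1.94 ± 0.36 (adjusted p = 0.000515, edgeR).

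Scavenger receptors and the colony-stimulating factor receptor followed. Cd163, the haemoglobin scavenger receptor (chromosome 6, 124304656 to 124330527, + strand), had 1622 and 1532 CPM in the Tbet ko libraries, against 72.7, 271, 499, 485 and 136 CPM in the total T libraries. Cd163 differed by a log2 fold change of 2.43 ± 0.50 (adjusted p = 0.00129, edgeR). Stab1, a scavenger receptor, and F13a1, a transglutaminase chain of clotting, had log2 fold changes of 1.78 ± 0.38 and 1.67 ± 0.32 (adjusted p = 0.00157 and 0.000685, edgeR; 1.24 with adjusted p = 0.0573 and 1.12 with 0.0279 against set B). Cd163 and Stab1 were also higher in the set C library of the IL6Ra ko/IL21R ko group than in its other 6, by 1.23 and 1.17 on the log2 scale, whereas Gas6 and Igf1 differed there by 0.11 and -0.32. F13a1 and Mrc1 were higher in that library too. F13a1 had 3489 CPM in it against 1592 to 2192 CPM in the other 6, and Mrc1 had 4522 CPM against 2500 to 3937 CPM. Csf1r is the receptor on which macrophages depend. Csf1r differed by a log2 fold change of 0.74 ± 0.14 (adjusted p = 0.000611, edgeR). With offsets for transcript length and GC content it differed by 0.28 (adjusted p = 0.222) and Stab1 by 0.76 (0.0709), and in the fit of the 7 libraries alone the adjusted p was 0.0571 for Csf1r and 0.0731 for Stab1 (edgeR). Of 12 tested genes of a microglia-like list 7 rose and 0 fell (median 0.97), beside 15.8% higher among all genes. Siglech, a sialic acid receptor of microglia and plasmacytoid dendritic cells, had 59.4 and 82.4 CPM in the Tbet ko libraries, against 5.8, 6.5, 11.9, 17.3 and 7.11 CPM in the total T libraries (log2 fold change 2.80 ± 0.46, adjusted p = 0.000253, edgeR), and Fcrls had 1564 and 1860.3 CPM in the Tbet ko libraries against 149, 334, 937, 678 and 172 CPM in the total T libraries. Fcrls differed by a log2 fold change of 1.87 ± 0.43 (adjusted p = 0.00305, edgeR; 0.13 in the fit of the 7 libraries alone). In mice without T cells the levels were 47.4 to 70.6 CPM for Siglech and 1319 to 1989 CPM for Fcrls.

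Genes typical of monocyte-derived cells were lower in the Tbet ko libraries. Of 18 tested members 15 fell and 0 rose, beside 14.1% lower among all genes, and for all 18 the libraries of the groups did not overlap, beside 45.1% of all genes. The median log2 fold change was -3.54 (-3.67 against set A with 17 lower, -2.73 against set B with 9 lower, -2.36 with the library set as a term with 0 called). The list's mean log2 CPM was 2.77 and 3.84 in the Tbet ko libraries, against 6.39 to 8.63 in the total T libraries. In the IL6Ra ko/IL21R ko group the log2 ratio of the library of set C to the other 6 had a median of -1.02 over this list. Ccr2, the chemokine receptor by which monocytes leave the marrow and enter tissue (chromosome 9, 124101950 to 124113557, + strand), had 339.7 and 259.8 CPM in the Tbet ko libraries, against 1788, 1173, 1294, 1005 and 1182 CPM in the total T libraries. Ccr2 differed by a log2 fold change of -2.14 ± 0.33 (edgeR adjusted p = 9.7e-05; -1.94 against set B, adjusted p = 0.00269). The other set C libraries were low too, with 278 and 321 CPM in IL-17AF ko and 222 and 216 CPM in IFNg ko libraries. In the IL6Ra ko/IL21R ko group Ccr2 had 235 CPM in the set C library against 647 to 914 CPM in the other 6. With the library set as a term Ccr2 differed by -0.52 and was not called. The part of the library type in the fall of Ccr2 was not tested beyond these values. Itgal, a chain of the integrin LFA-1 (chromosome 7, 127296260 to 127335138, + strand), had 43.1 and 44.6 CPM in the Tbet ko libraries, against 445, 256, 104, 165 and 445 CPM in the total T libraries. Itgal differed by a log2 fold change of -2.65 ± 0.52 (edgeR adjusted p = 0.000948; -1.62 against set B, adjusted p = 0.0189). S100a4, a calcium-binding protein that fibroblasts also make and that was set apart with the stromal genes, had 6.42 and 13.8 CPM in the Tbet ko libraries, against 187, 96.6, 118, 132 and 93.3 CPM in the total T libraries. S100a4 differed by a log2 fold change of -3.70 ± 0.62 (adjusted p = 0.00029, edgeR).

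**Figure D3:**
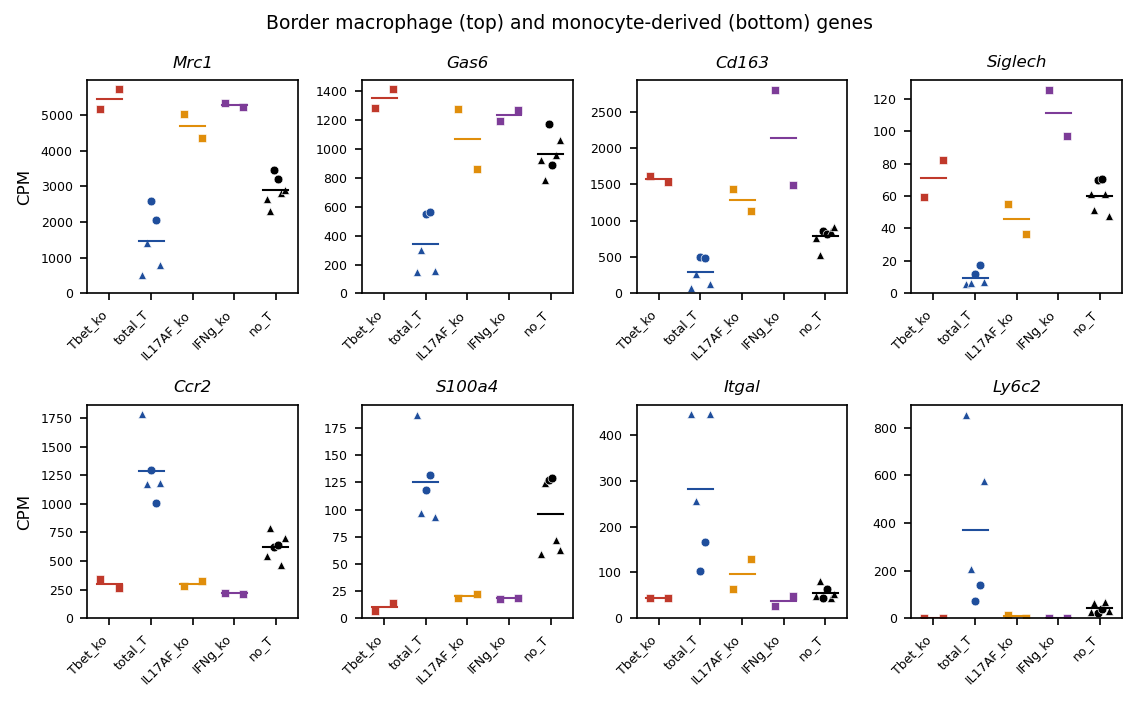
CPM per library (points; triangles set A, circles set B, squares set C) with the group mean (line) for 4 border macrophage or microglia-like genes (top row) and 4 monocyte-derived genes (bottom row); groups are on the x axis, Tbet ko at the left. Both Tbet ko libraries lie above all 5 total T libraries in the top row and below them in the bottom row, and the libraries of mice without T cells lie between these groups, without overlap, for Gas6, Cd163, Ccr2 and Ly6c2.

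Several monocyte genes were near 0 in the Tbet ko libraries. Ly6c2, the surface antigen of inflammatory monocytes (chromosome 15, 75108158 to 75111970, - strand), had 0.494 and 1.5 CPM in the Tbet ko libraries, against 853, 205, 71.3, 141 and 576 CPM in the total T libraries (edgeR adjusted p = 0.00716; 0.0425 against set B). The total T library F1 was the highest. Ly6c2, like Ly6i, Chil3, Ear2 and the Gbp genes, belongs to a family of close relatives that can share reads, so its level is uncertain. Plac8 had 0.395 and 9.12 CPM in the Tbet ko libraries, against 1879.9, 388, 169, 290.2 and 947 CPM in the total T libraries (edgeR adjusted p = 0.0107), and Chil3, a chitinase-like protein of monocytes, had 0 and 10.4 CPM in the Tbet ko libraries, against 2447, 492, 71, 105 and 181 CPM in the total T libraries (edgeR adjusted p = 0.0409). For Plac8 and Chil3 the Tbet ko library F1 was near or at 0 and F2 was higher. Against set B the calls of Plac8 and Chil3 were lost (adjusted p = 0.0589 and 0.227, edgeR), as they were in the fit of the 7 libraries alone (0.0782 and 0.157); with length and GC offsets Chil3 was at 0.0529. Without the Tbet ko library F1 the adjusted p was 0.0957 for Ly6c2, 0.12 for Plac8 and 0.24 for Chil3; without F2 it was 0.0647 for Ly6c2 and 0.0871 for Chil3, and without total T library F1 it was 0.079 for Chil3.

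Of 12 tested dendritic cell genes 5 fell and 1 rose, beside 14.1% lower and 15.8% higher among all genes (median -2.77), and the groups did not overlap for 6 of the 12, beside 45.1% of all genes. The list summed to 200 and 272 CPM in the Tbet ko libraries, against 332 to 593 CPM in the total T libraries. Flt3, the receptor that maintains dendritic cells, had 0.296 and 0.702 CPM in the Tbet ko libraries, against 3.1, 7.32, 13.9, 10.7 and 4.2 CPM in the total T libraries. Flt3 differed by a log2 fold change of -3.95 ± 0.87 (adjusted p = 0.00169, edgeR; -4.59 against set B, adjusted p = 0.00329). Itgax (CD11c) had 31.2 and 26.5 CPM in the Tbet ko libraries, against 126, 211, 224, 212 and 252 CPM in the total T libraries. Itgax differed by a log2 fold change of -2.76 ± 0.61 (adjusted p = 0.00218, edgeR). Against set B it differed by -2.92 (adjusted p = 0.0118, edgeR). With the library set as a term Itgax differed by -0.62 and Flt3 by -2.65, and neither was called. In the IL6Ra ko/IL21R ko group Itgax had 16 CPM in the set C library against 32.2 to 114 CPM in the others. The log2 ratio of that library to the mean of the others had a median of -0.84 over the dendritic cell list. Clec9a, a marker of cross-presenting dendritic cells, had 2.77 and 2.61 CPM in the Tbet ko libraries, against 16, 18.5, 6.22, 27.1 and 33.7 CPM in the total T libraries. Clec9a differed by a log2 fold change of -2.91 ± 0.99 (adjusted p = 0.0307, edgeR). The call of Clec9a was lost against set B (0.113), without the Tbet ko library F1 (0.175) or F2 (0.168) and without total T library M1 (0.0527), and its fold change with the library set as a term was 0.17. The call of Flt3 was lost without the Tbet ko library F1 (adjusted p = 0.0523). Natural killer cell genes, which a myeloid sort can carry along, summed to 7.12 and 7.72 CPM in the Tbet ko libraries, against 25.2 to 75.1 CPM in the total T libraries. Of the 10 listed, 3 passed the filter on low counts; 1 of these fell, and for all 3 the groups did not overlap (median -3.09). The part of dendritic and natural killer cells in the class II and monocyte results was not tested.

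Glycolytic enzymes and hypoxia genes were lower in the Tbet ko libraries, mostly against set A. Of 18 tested genes 14 fell and 0 rose, beside 14.1% lower among all genes (median -1.58, -2.01 against set A with 14 lower, -0.66 against set B with 1 lower, -1.07 with the library set as a term with 0 called). Ldha, which reduces pyruvate to lactate (chromosome 7, 46841475 to 46855627, + strand), had 203 and 234 CPM in the Tbet ko libraries, against 1014, 420.5, 375, 364 and 819 CPM in the total T libraries. Ldha differed by a log2 fold change of -1.40 ± 0.30 (adjusted p = 0.00135, edgeR; -0.76 with 0.0507 against set B). Pfkp, a phosphofructokinase, had 30.9 and 41.9 CPM in the Tbet ko libraries, against 268, 119, 52.2, 96.5 and 219 CPM in the total T libraries. Pfkp differed by a log2 fold change of -1.98 ± 0.42 (adjusted p = 0.00154, edgeR; -1.03 with 0.0434 against set B). Total T libraries F1 and M1 were the highest for both enzymes. Enolase Eno1 had 77.3 and 70.1 CPM in the Tbet ko libraries, against 650.3, 299.6, 118, 156 and 522 CPM in the total T libraries. Eno1 differed by a log2 fold change of -2.13 ± 0.48 (adjusted p = 0.00269, edgeR; 0.0767 against set B). Several enzymes of this list have processed pseudogene copies that can share reads with the gene, and the labels do not say how such reads were counted, so their levels are uncertain. In a fit of the 7 libraries alone 0 of the 18 were called (adjusted p = 0.0936, 0.098 and 0.109 for Ldha, Pfkp and Eno1, edgeR), and with both Tbet ko libraries summed into 1 it was 4. Gapdh had 25.2 and 24.5 CPM in the Tbet ko libraries, against 40.9 to 886 CPM in the total T libraries.

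Enzymes of arginine, kynurenine and uridine metabolism included large differences, several of them from low levels in the Tbet ko libraries. Of 11 tested genes 6 fell and 1 rose, beside 14.1% lower and 15.8% higher among all genes. Ass1, which makes argininosuccinate, had 1.19 and 2.31 CPM in the Tbet ko libraries, against 203, 61.3, 9.998, 33.2 and 201 CPM in the total T libraries. Ass1 differed by a log2 fold change of -5.80 ± 1.48 (adjusted p = 0.00637, edgeR). Kynu, a kynureninase, had 1.28 and 0.501 CPM in the Tbet ko libraries, against 42, 13, 3.37, 8.08 and 25.5 CPM in the total T libraries. Kynu differed by a log2 fold change of -4.28 ± 1.26 (adjusted p = 0.0132, edgeR). Odc1, the first enzyme of polyamine synthesis, had 70.9 and 101 CPM in the Tbet ko libraries, against 221, 213, 137, 129.9 and 211 CPM in the total T libraries. Odc1 differed by a log2 fold change of -1.03 ± 0.25 (adjusted p = 0.00302, edgeR). All 3 calls were lost against set B (adjusted p = 0.0682, 0.138 and 0.0916) and without the Tbet ko library F1 (0.0917, 0.0809 and 0.11), and those of Ass1 and Kynu also without F2 (0.0569 and 0.136).

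Of 17 tested interleukin-17 and NF-kB target genes 3 rose and 2 fell, beside 15.8% higher and 14.1% lower among all genes, with a median log2 fold change of -0.04. The list's mean log2 CPM was 6.75 and 7.15 in the Tbet ko libraries, against 7.26 to 7.61 in the total T libraries, so the groups did not overlap on it. Nfkbia, the NF-kB inhibitor, had 956 and 1022 CPM in the Tbet ko libraries, against 1625, 1979.6, 1743, 1605 and 1146 CPM in the total T libraries (log2 fold change -0.74 ± 0.15, adjusted p = 0.00106, edgeR; -0.76 with 0.0101 against set B, -0.45 with 0.0591 with length and GC offsets), and Cebpd, a transcription factor, had 350.5 and 283 CPM in the Tbet ko libraries against 71.6, 113, 120.2, 123 and 71.2 CPM in the total T libraries. Cebpd differed by a log2 fold change of 1.63 ± 0.30 (adjusted p = 0.000457, edgeR). Ptgs2, the inducible cyclooxygenase, had 497 and 599.7 CPM in the Tbet ko libraries, against 1990.3, 1214, 987, 888 and 2207 CPM in the total T libraries. Ptgs2 differed by a log2 fold change of -1.40 ± 0.46 (adjusted p = 0.0266, edgeR). Its adjusted p was 0.299 against set B, 0.196 and 0.11 without the Tbet ko libraries F1 and F2, and 0.0614 and 0.0503 without total T libraries F1 and M1.

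Genes of alternative activation were mixed. Of 17 tested genes 2 rose, Mrc1 and Il4ra, and 4 fell, Chil3, Ccl22, Ear2 and Tgm2 (median -0.54), beside 15.8% higher and 14.1% lower among all genes. Il4ra, the receptor chain for interleukins 4 and 13, had 724 and 785 CPM in the Tbet ko libraries, against 373, 364, 490.0, 388 and 401 CPM in the total T libraries (log2 fold change 0.92 ± 0.20, adjusted p = 0.00159, edgeR), but was also higher in the set C library of the IL6Ra ko/IL21R ko group, by 0.81, and its fold change with the library set as a term was -0.0698. With length and GC offsets Il4ra differed by 0.28 (adjusted p = 0.289, edgeR). The chemokine Ccl22 had 2.77 and 2.81 CPM in the Tbet ko libraries, against 43.3, 37.5, 30.2, 28.2 and 28 CPM in the total T libraries. Ccl22 differed by a log2 fold change of -3.86 ± 1.32 (adjusted p = 0.033, edgeR). Ear2, an eosinophil-associated ribonuclease, had 4.84 and 1.1 CPM in the Tbet ko libraries, against 25.6, 45.3, 88.5, 45.4 and 14.5 CPM in the total T libraries (log2 fold change -3.90 ± 1.07, adjusted p = 0.00978, edgeR), and 0.49 with the library set as a term. Tgm2, a transglutaminase, had 49 and 64 CPM in the Tbet ko libraries, against 580.3, 254, 87.9, 193 and 589 CPM in the total T libraries. Tgm2 differed by a log2 fold change of -2.46 ± 0.76 (adjusted p = 0.02, edgeR). The calls of Ccl22 and Tgm2 were lost against set B (0.121 and 0.247), without the Tbet ko library F1 (0.189 and 0.165) and without F2 (0.17 and 0.103), that of Ccl22 without total T library M1 (0.0508) and that of Ear2 without the Tbet ko library F2 (0.122).

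Of 13 complement genes 3 rose and 2 fell, beside 15.8% higher and 14.1% lower among all genes. Early-response genes, which tissue digestion can induce, were called higher in 6 of 19 and lower in 0 (median 0.43), beside the same shares. Among them Jun had 2391 and 1707 CPM in the Tbet ko libraries, against 566, 964, 952, 895 and 669 CPM in the total T libraries (log2 fold change 1.35 ± 0.28, adjusted p = 0.00107, edgeR), and Atf3 had 1538 and 1499 CPM in the Tbet ko libraries against 596, 1016, 1228, 1005 and 735 CPM in the total T libraries. Atf3 differed by a log2 fold change of 0.71 ± 0.21 (adjusted p = 0.015, edgeR; 0.244 against set B, 0.102 and 0.0701 without the Tbet ko libraries F1 and F2). Their part in the other results was not tested. Of 25 cell cycle genes 7 fell and 1 rose (median -0.88), beside 14.1% lower and 15.8% higher among all genes. Rrm2, a subunit of ribonucleotide reductase, had 3.36 and 4.41 CPM in the Tbet ko libraries, against 6.81, 12.5, 17.3, 19.7 and 6.79 CPM in the total T libraries. Rrm2 differed by a log2 fold change of -1.79 ± 0.47 (adjusted p = 0.00578, edgeR; 0.0999 without the Tbet ko library F1).

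The 10 largest positive differences outside the stromal genes were of genes that the other set C libraries shared: for each, both IL-17AF ko and both IFNg ko libraries also lay above all 5 total T libraries. They were Sned1, Flnc, Fat4, Lama2, Slc26a7, Tnxb, Svep1, Fat1, Cobl and Slc4a4, with log2 fold changes between 4.61 and 6.03. With the fibroblast score as a covariate these lay between -0.49 (Fat1) and 2.69 (Slc26a7), and none of the 10 was called. Lama2, Tnxb, Flnc and Fat4 were then at 0.20, -0.0766, 0.56 and 1.23. The 10 genes met neither rule for stromal genes, but whether fibroblast RNA carried them was not tested beyond these values. Fat4, an atypical cadherin, had 63.5 and 38.9 CPM in the Tbet ko libraries, against 1.89, 0, 0.714, 2.36 and 3.07 CPM in the total T libraries, and 24.2 and 55.5 CPM in IL-17AF ko and 57.9 and 64.1 CPM in IFNg ko libraries. Lama2, a laminin chain, had 25 and 20.9 CPM in the Tbet ko libraries, against 0.809, 0, 0.102, 0.926 and 3.55 CPM in the total T libraries, and Tnxb, a tenascin, had 25 and 30.4 CPM in the Tbet ko libraries, against 0.809, 0, 2.55, 0.337 and 1.4 CPM in the total T libraries. The cytoskeletal filamin Flnc had 28.7 and 17.7 CPM in the Tbet ko libraries, against 0.0674, 0.148, 2.04, 0.758 and 0.162 CPM in the total T libraries. Slc26a7, an anion transporter (chromosome 4, 14502430 to 14621805, - strand), had the lowest adjusted p of the 10 (1.47e-05, edgeR), with 60.2 and 57.9 CPM in the Tbet ko libraries against 2.09, 1.11, 0.204, 3.62 and 1.89 CPM in the total T libraries. In the IL6Ra ko/IL21R ko group these genes were higher in the library of set C by 1.43 to 4.45 on the log2 scale.

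The largest negative differences were of genes near 0 in the Tbet ko libraries, among them Ly6i, Htr7, Ly6c2, Upp1, Gm9733, Plac8, Chil3, Trem3 and Mcemp1. No fold is given for those with few counts, since the fitted value then depends on the prior count. Ly6i, a relative of the monocyte antigen Ly6c2, had 0.692 and 0.1 CPM in the Tbet ko libraries, against 655, 111, 10.7, 82.3 and 689 CPM in the total T libraries (edgeR adjusted p = 0.0287). The serotonin receptor Htr7 had 0 and 0.1 CPM in the Tbet ko libraries, against 63, 11.4, 4.59, 6.4 and 29.6 CPM in the total T libraries (edgeR adjusted p = 0.0308), and the uridine phosphorylase Upp1 had 0.395 and 0.1 CPM in the Tbet ko libraries against 149, 17.1, 1.63, 19.96 and 108 CPM in the total T libraries (edgeR adjusted p = 0.0209). Trem3, a myeloid receptor, had 0.395 and 0 CPM in the Tbet ko libraries, against 90.6, 11.7, 6.63, 6.32 and 19 CPM in the total T libraries (edgeR adjusted p = 0.00933). Mcemp1 had 0 and 1.1 CPM in the Tbet ko libraries, against 131, 50.2, 21.8, 31.1 and 86.3 CPM in the total T libraries (edgeR adjusted p = 0.00267), and Gm9733 had 0 and 0.301 CPM in the Tbet ko libraries against 71.9, 17.7, 21.7, 21.2 and 27.9 CPM in the total T libraries (edgeR adjusted p = 0.00645). The Tbet ko libraries lay below all total T libraries for each of these, and total T library F1 or M1 was the highest. Against set B, Mcemp1 and Gm9733 kept a call (adjusted p = 0.0221 and 0.0327, edgeR), while Ly6i, Htr7, Upp1 and Trem3 did not (0.134, 0.141, 0.131 and 0.0766). Without the Tbet ko library F1 the adjusted p was 0.162 for Ly6i, 0.201 for Htr7, 0.135 for Upp1, 0.0616 for Trem3, 0.0552 for Mcemp1 and 0.0943 for Gm9733; without F2 it was 0.173 for Ly6i, 0.146 for Htr7, 0.148 for Upp1 and 0.103 for Trem3, and without total T library F1 it was 0.0522 for Ly6i and 0.0632 for Htr7.

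Against the knockout groups of the same library type no gene passed the threshold. Tbet ko against IL-17AF ko libraries gave 0 of 12661 genes (0%; 170 at an unadjusted p under 0.05; DESeq2 0), and Tbet ko against IFNg ko libraries gave 0 (0%; 434 at an unadjusted p under 0.05; DESeq2 0), with 2 libraries against 2 in each; without the IFNg ko library F2 the comparison with IFNg ko gave 306. That last fit left IFNg ko F1 as the only library of its group. F1 had the lowest total (6902602) and the fewest genes detected (13225) of the 27 libraries. It had 50498 CPM of mitochondrial transcripts, against 14364 CPM in IFNg ko F2. The interferon-gamma response list stood between these groups: its mean log2 CPM was 5.22 and 5.33 in the Tbet ko libraries, against 5.73 and 6.13 in the IL-17AF ko libraries and 4.75 and 4.83 in the IFNg ko libraries. The median log2 fold change of the list was -0.56 for Tbet ko over IL-17AF ko and 0.42 for Tbet ko over IFNg ko, beside a median near 0 over all genes in both. Gbp4 had 13.8 and 9.62 CPM in the Tbet ko libraries, against 30.4 and 45.7 CPM in the IL-17AF ko and 3.58 and 3.24 CPM in the IFNg ko libraries, and Fcgr4 had 141 and 159.6 CPM in the Tbet ko libraries, against 259 and 397 CPM in the IL-17AF ko and 78.4 and 91 CPM in the IFNg ko libraries. For both genes the 3 groups did not overlap, but for Socs1, Acod1 and Psmb10 they did. Socs1 had 13.6 and 11 CPM in the Tbet ko libraries, against 9.89 and 24.8 CPM in the IL-17AF ko and 12.7 and 15 CPM in the IFNg ko libraries. The share of all genes without overlap between these 3 groups was not computed. Border macrophage genes differed by a median of 0.39 over IL-17AF ko and 0.04 over IFNg ko libraries, and monocyte-derived genes by -0.86 and -0.27.

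Against mice without T cells, which are of sets A and B, 836 genes were called (6.60%), 535 higher (4.23%) and 301 lower (2.38%) in Tbet ko libraries. Among the libraries without T cells, F2 stood apart with higher levels of Acod1, Cxcl9, Ccl5 and other response genes. The count was 0 without the Tbet ko library F1, 17 without the Tbet ko library F2 and 519 without the library F2 of mice without T cells. The interferon-gamma list differed little here (median 0.22, 1 higher, 0 lower); its mean log2 CPM was 5.22 and 5.33 in the Tbet ko libraries, within the 4.65 to 5.54 of the libraries without T cells. Tap1 had 218 and 190.2 CPM in the Tbet ko libraries, against 196 to 274 CPM in mice without T cells. Fibroblast genes were higher again (6 of 9, median 2.25). Of the monocyte-derived genes 3 fell and 0 rose (median -1.29), among them Ccr2, with 339.7 and 259.8 CPM in the Tbet ko libraries against 465 to 793 CPM in mice without T cells (log2 fold change -1.13, adjusted p = 0.0283, edgeR). Of 25 cell cycle genes 7 fell and 0 rose (median near -1). The comparison with mice without T cells and that with total T libraries share the Tbet ko libraries.

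**Figure D4:**
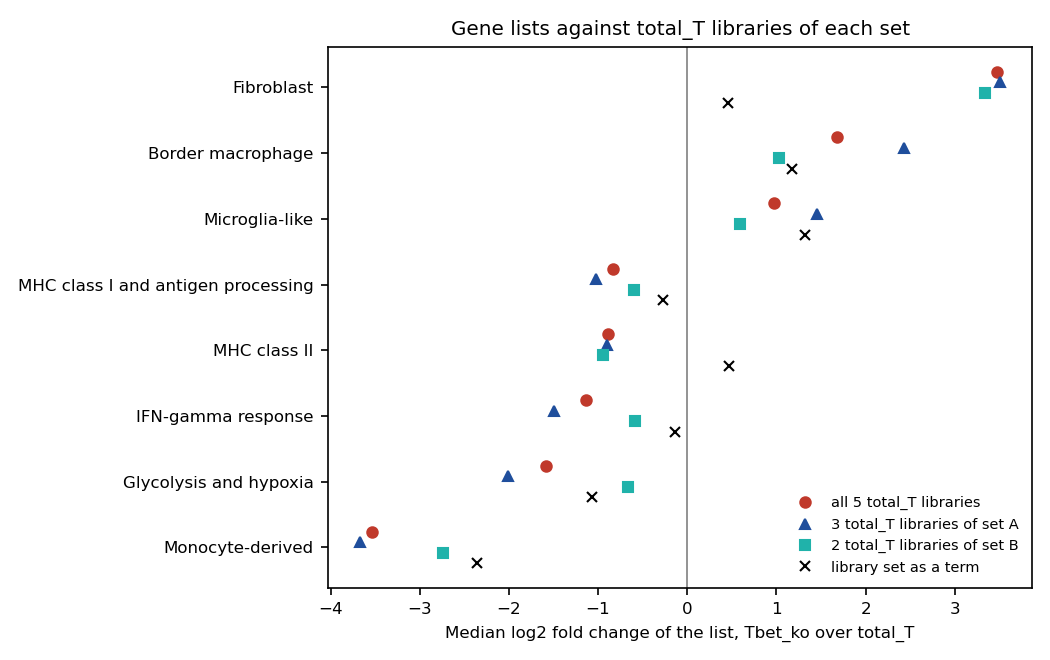
Median log2 fold change (x, Tbet ko over total T) of 8 gene lists (y) against all 5 total T libraries, against the 3 of set A, against the 2 of set B and in a fit with a term for the library set. The lists keep their sign against both sets; with a term for the library set the border macrophage median is 1.17 and the monocyte-derived median -2.36, while the interferon-gamma median is -0.14 and the MHC class II median 0.47.

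The difference between library types could be seen within the IL6Ra ko/IL21R ko group, where 1 library of set C can be set against the mean of the other 6. This is a description of 1 library with no replicate. Of the 2004 genes called higher in Tbet ko libraries, 56.0% were higher in that library by more than 0.5 on the log2 scale, beside 21.0% of all tested genes; of the 1789 called lower, 41.0% were lower by more than 0.5, beside 17.8% of all genes. The median ratio was -0.76 over the interferon-gamma list, -0.61 over MHC class I and -1.45 over MHC class II. It was -1.02 over the monocyte-derived list, -0.84 over the dendritic cell list, 0.04 over the border macrophage list and 0.01 over the glycolysis list. Longer transcripts were also higher in the Tbet ko libraries: the median log2 fold change was -0.36, -0.09, 0.08 and 0.41 from the shortest to the longest of 4 bins of genes by transcript length. The corresponding ratios within the IL6Ra ko/IL21R ko group were -0.32, -0.10, 0.07 and 0.37.

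**Figure D5:**
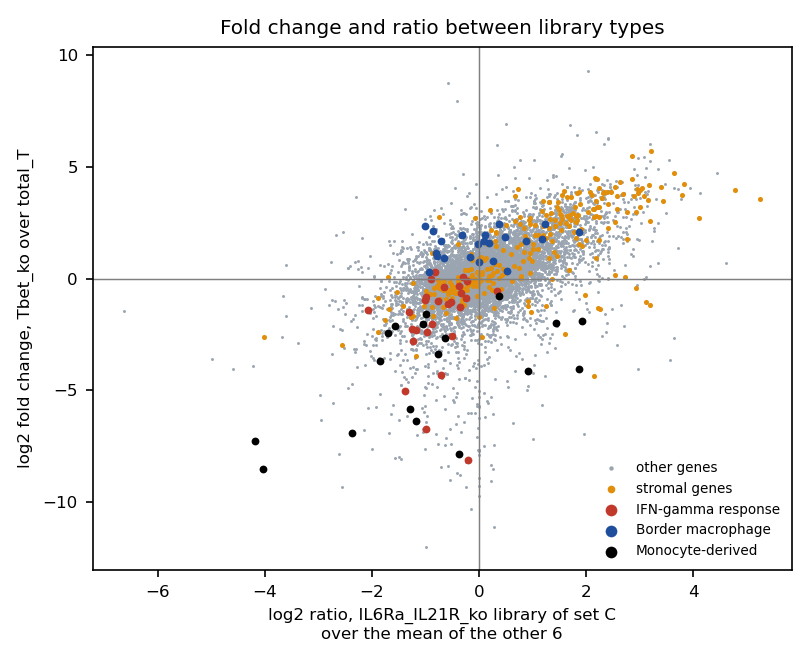
Each point is 1 of 12661 tested genes, with the log2 ratio of the set C library of the IL6Ra ko/IL21R ko group over the mean of its other 6 libraries (x) and the log2 fold change of Tbet ko over total T libraries (y); stromal genes and 3 lists are coloured. Stromal genes of the fibroblast and extracellular matrix lists lie mostly at the upper right, while other stromal genes, such as S100a4, lie below 0. Border macrophage genes lie above 0 on both sides of a ratio of 0, and monocyte-derived genes below 0 on both sides of it.

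With the library set as a term, 11 genes were called (3 higher, 8 lower; 1178 at an unadjusted p under 0.05, edgeR), and these were named after their values were seen. Psen2, a presenilin, differed by -1.54 there and by -1.63 without the term (adjusted p = 0.0477 and 7.02e-05, edgeR). Ptgs1, the constitutive cyclooxygenase, differed by 1.74 with the term and 1.24 without it (adjusted p = 0.0409 and 0.000536, edgeR), and Etv3, a transcriptional repressor, by 1.83 and 1.00 (adjusted p = 0.0389 and 0.00853, edgeR). Flna, a filamin, differed by -1.48 and -0.58 (adjusted p = 0.0199 and 0.0477, edgeR). The other 7, among them Man2a1, Ccl9, Klf4, Clec4d, Btg2 and Ms4a6d, were called with the term and not without it.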

How the data were processed

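RNA-seq of sorted dural macrophages was deposited as 1 table of counts per gene for 27 libraries. The submitters' processing notes name STAR 2.4.0j, featureCounts, DESeq2 1.20.0 and GRCm38, with no settings. The deposited table is named as normalized, but its values are whole numbers whose totals differ between libraries (9932221 and 10048893 in the Tbet ko libraries, 10300692 to 19966749 in the total T libraries), so they were treated as raw counts. Reads were single-end, 75 bases and unstranded, per the labels' protocols, so a gene and an overlapping antisense gene cannot be told apart. Columns were tied to groups by name; 0 columns were left unused. Of 41388 genes 40340 had a symbol; coordinates are GRCm38.

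Genes with a mean of at least 10 TMM-normalised counts over the 27 libraries were kept. The test was edgeR 4.0.16 (R 4.3.3), robust quasi-likelihood, with group and sex as terms over all 27 libraries, which share 1 estimate of the spread. A call is a Benjamini-Hochberg adjusted p under 0.05. DESeq2 1.42.0 was an alternative. The script was tested on simulated data. Named genes are the 10 largest called changes per direction (stromal genes apart, both Tbet ko libraries outside the total T range, at least 10 CPM in the higher group), the called genes of lowest p per list (8 for main lists, 4 for others) and stromal genes of lowest p. The text describes a part of these; some are not reported here. Members and lists were chosen with earlier results of these data known. Ribosomal protein CPM use plain totals. Counting error limits low genes: a count of 0 allows up to 3 counts.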

Additional observations from a re-analysis of the deposited data

Results flagged for a closer look

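Among the 81 called genes given with a fold change or adjusted p (those chosen for their call with the library set as a term left out), the highest or lowest library was checked against its neighbours in the total T libraries and in the libraries without T cells. In 18 of 162 checks (81 genes in 2 groups) a library stood apart by Dixon's ratio of the gap to the range at the 95% level. The test flags about 1 group in 20 by chance if values are normally distributed and checks are independent. It was run on CPM without logs, and the same library was flagged for several genes, so that rate is only a guide. The Tbet ko group, with 2 libraries, was not checked.

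In mice without T cells, library F2 was the one that stood apart for 12 genes. It was highest for Acod1, with 29.6 CPM against 5.13 CPM in the next library (ratio 0.854), for Cxcl9 (0.775), for Ccl5 (0.829), for Cd274 (0.747), for Tap1 (0.724) and for Ctss (0.639). It was also highest for Ass1 (0.719), Itgax (0.626), Ly6i (0.928), Htr7 (0.955) and Upp1 (0.927), and lowest for Csf1r (0.708), with 4196 CPM against 4608 CPM in the next library. Library M1 of this group was highest for Trem3 (0.895).

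Among total T libraries, F1 stood apart as the highest for Chil3 (0.823), Gm9733 (0.811) and Trem3 (0.849); for Chil3 it had 2447 CPM against 492 CPM in the next library. F2 was highest for Sned1 (0.789) and M1 for Lama2 (0.739), both at low levels (0.961 and 3.55 CPM).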

How the results depend on the processing

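No paired analysis was possible because the columns of the table carry no replicate number of a sample's title. The comparison of Tbet ko with total T libraries gave 3793 called genes (2004 higher, 1789 lower), 1331 tested against a 1.5-fold change, 1908 in a fit of the 7 libraries alone, 1418 against set B, 11 with the library set as a term, 24 with the fibroblast score as a covariate and 1615 with the Tbet ko libraries summed into 1 (added after seeing the data). Length and GC offsets gave 3242, of which 1180 were higher and 2062 lower. Leaving out 1 library gave 1463 to 3957, with the lowest counts without Tbet ko F1 (1463) and F2 (1962). Without a filter on low counts the comparison with IL-17AF ko gave 81 genes and that with IFNg ko 66, where leaving out 1 library gave 0 to 306. Against mice without T cells 836 became 1289 with DESeq2, 6 against a 1.5-fold change, 1510 without the filter, 7 with the set term, 0 with the fibroblast covariate, 325 with length and GC offsets, 0 with the Tbet ko libraries summed and 0 to 929 with 1 library left out.

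Directions turned for few values; the cause was not tested. With the set term the log2 fold changes were 0.0498 for Gbp3, 0.42 for H2-DMa, 0.39 for H2-DMb1, 0.66 for H2-Ab1, -0.0698 for Il4ra, 0.49 for Ear2, 0.80 for Upp1, -0.32 for Fat1 and 0.17 for Clec9a, and the MHC class II median was 0.47. With the fibroblast covariate they were 0.0565 for H2-DMa, 0.0140 for H2-DMb1, 0.23 for H2-Ab1, -0.0766 for Tnxb, -0.49 for Fat1 and -0.26 for Col1a1, and the medians were 0.0513 for MHC class II and -0.0314 for the fibroblast list. Of the 81 called genes given with a fold change or adjusted p, those chosen for their call with the set term apart, 50 kept their call against set B, 80 against set A, 53 in the fit of the 7 libraries, 53 with the Tbet ko libraries summed, 73 with length and GC offsets, 52 and 55 without Tbet ko F1 and F2, 0 with the set term and 1 with the fibroblast covariate. The fit of the 7 libraries and the summed fit both ended the calls of Gbp2, Gbp4, Cxcl9, Ccl5, Cd274, Plac8, Chil3, Tgm2, Kynu, Ass1, Atf3, Ly6i, Htr7, Upp1, Trem3 and Cd4. The fit of the 7 libraries alone also ended those of Tap2, Mrc1, Gas6, Igf1, Csf1r, Cd163, Stab1, Fcrls, Ldha, Pfkp, Eno1 and Zbp1, and the summed fit those of Acod1, H2-DMa, H2-DMb1, H2-Ab1, Ly6c2, Ear2, Ccl22, Rrm2, Ptgs2, Gm9733, Ifngr2 and Clec9a. Length and GC offsets ended those of H2-DMb1, H2-Ab1, Csf1r, Stab1, Chil3, Il4ra, Nfkbia and Cd4. The 14 called genes of the interferon-gamma list became 4 in the fit of the 7 libraries and 3 with the Tbet ko libraries summed. RLE scaling, TMM without stromal and ribosomal protein genes, no filter and a mean of at least 50 counts changed no call among the 81.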
